A study of Mus musculus with 36 samples.

Results

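Macrophages given IL-4 (M2a) were compared with macrophages given the glucocorticoid dexamethasone (M2c), a pair of states that share the name M2. The arrays were chosen by their labels alone, 3 of M2a and 3 of M2c, which makes 6 of the 36 arrays in the study. All cells of this comparison began as bone marrow monocytes of mice, sorted as Ly6C+ Ly6G- CD11b+, and grew for 7 days in RPMI medium with 10% FCS and 20 ng/ml M-CSF, the cytokine that carries monocytes into macrophages. On day 6 the M2a cultures received 20 ng/ml IL-4 for 24 h and the M2c cultures 1e-07 M dexamethasone for 24 h. A further 3 arrays of the same cultures with no stimulus (M0) show from which side a difference comes. The labels give no strain, sex or age of the mice. They number the arrays of a group as series 1 to 3 without saying whether these were separate animals. A p-value here reflects how far arrays scatter within the 12 groups of the study, which share an estimate of the spread, and nothing wider. The state is that of 1 stimulus at 1 dose and 1 time in cells kept in M-CSF.

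IL-4 binds a receptor built on the IL-4 receptor alpha chain, and the kinases at that receptor phosphorylate STAT6, which enters the nucleus and binds DNA where TTC and GAA face each other across a short gap. The macrophages that result are known from arginase 1, the resistin-like protein RELMα (Retnla), chitinase-like proteins and lectins, and are found in allergy, in worm infection and around healing wounds. Dexamethasone crosses the membrane and binds the glucocorticoid receptor (Nr3c1), which leaves its chaperones, enters the nucleus, binds its response elements or other factors on DNA, and both raises and lowers transcription. Macrophages under glucocorticoids are known for the haemoglobin scavenger receptor CD163, for uptake of dying cells through MERTK, and for lower output of inflammatory cytokines.

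A level below is the log2 of an array's processed signal minus the log2 of its 75th percentile, so that 0 is the signal of a fairly bright probe and a level near -8 is background. Levels of different genes come from different probes and are not set against each other. A difference is M2a minus M2c on this log2 scale unless stated, and a gene was called at an adjusted p below 0.05 (limma, Benjamini-Hochberg over 17606 genes). On the 6 arrays the 75th percentile of signal ran from 512.2 to 594.7 units and 53.4 to 56.5% of probes were well above background. Arrays of 1 group correlated at 0.985 to 0.993 and arrays of different groups at 0.955 to 0.969. All 12 listed markers, among them Adgre1, Csf1r (the M-CSF receptor), Cd68 and Lyz2, were well above background on all 3 arrays of each group, and their summed signal was 1110 to 1280 times the 75th percentile in M2a and 1340 to 1430 times in M2c. Between the states 17.2% of all genes were called higher in M2c and 18.2% in M2a. Of the 12 markers, 6 were higher in M2c (Mertk, Cd14, Aif1, Fcgr1, Csf1r and Itgam) and the transcription factor Spi1 was higher in M2a, a call lost without M2a 1 (0.26). Csf1r and Itgam lost theirs without M2a 3 (-0.49 and -0.51), Itgam also without M2a 2 (-0.59) or M2c 1 (-0.52). The M2a arrays lay on other slides than the M2c arrays, so slide and stimulus cannot be told apart here, while each scan day held arrays of both groups.

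Some arrays stood apart from their partners. On M2a 1, 111 genes lay over 2 log2 units from the other M2a arrays where those differed by less than 1, against 9 for M2a 2 and 8 for M2a 3. In M2a 1 the chemokine Ccl17 read -1.19 against -4.29 and -4.99, while Retnla read 2.53 against 5.06 and 4.71. M2c 1 and M2c 2 had 44 and 35 such genes, of which 43 and 32 were lower on that array, and M2c 3 had 7. Part of the genes low on M2c 2 were measured by probes with runs of alternating T and G, described below. Bulk RNA does not tell fewer cells of a type from less RNA per cell.

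The states differed widely. Of 17606 genes, 6231 (35.4%) were called, with 3198 (18.2%) higher in M2a and 3033 (17.2%) higher in M2c, and 2233 (12.7%) differed at least 2-fold, 1077 (6.12%) upward in M2a and 1156 (6.57%) upward in M2c. The median difference over all genes was 0.02. The shares of 18.2% and 17.2%, and the 35.4% called either way, are the background for the list counts below. The 3 arrays of one group did not overlap those of the other for 8631 genes (49.0%). Of the calls, 99.3% had the same direction on both scan days, but the same arrays had made the calls. For 6010 of the calls the arrays did not overlap, which fixes this outcome in advance, so the share is no separate check. Against M0, which both contrasts share, 2164 genes (12.3%) were called under IL-4 and 3599 (20.4%) under dexamethasone. Without M2a 1, the IL-4 count fell to 1295. The M0 arrays lay on the slides of M2a and not on those of M2c, so only the dexamethasone contrast crosses slides. When slides were modelled as random blocks, 3195 genes were called under IL-4 and 3623 under dexamethasone. The gap between these counts thus depends on how slides are handled.

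**Figure D1:**
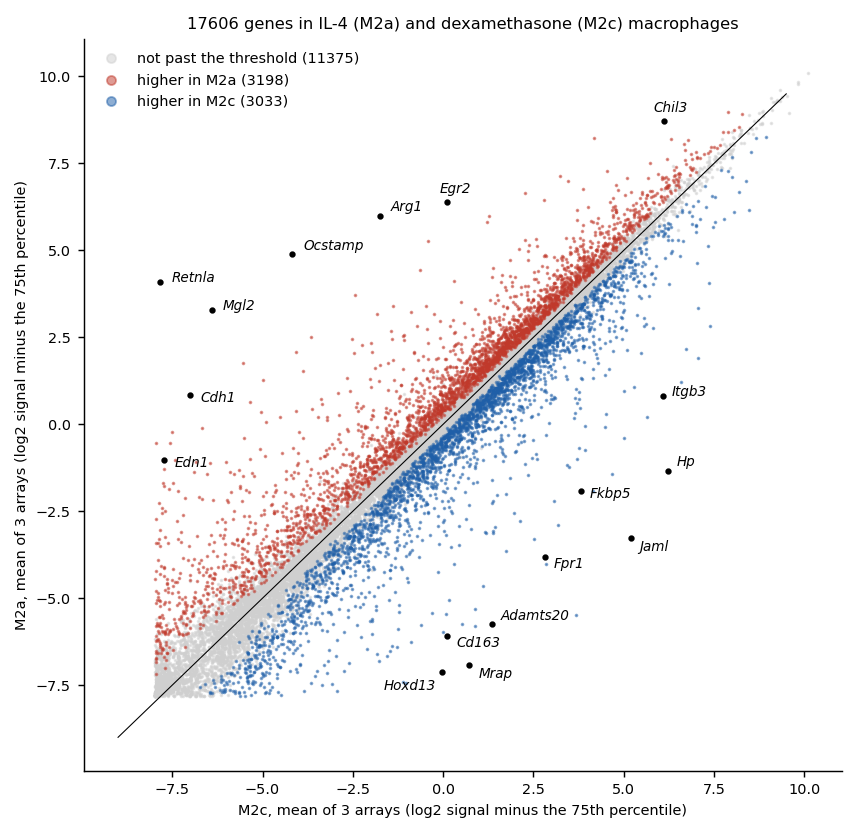
Mean level of each of 17606 genes in M2a (vertical axis) against M2c (horizontal axis), both as log2 signal minus the array's 75th percentile, 3 arrays each. Red points are the 3198 genes called higher in M2a, blue points the 3033 called higher in M2c, and black points name some genes of the text. Retnla and Mgl2 lie far above the line of equal levels and Jaml and Hp far below it.

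The promoters of a few genes that lead the comparison are shown first, since both signals end at DNA. They run from 250 bases before to 50 after the start of the gene and were taken from RefSeq (GRCm38.p6), which held a promoter for 26 of the 38 genes that lead the ranking or are always named. Retnla at chr16:48842359-48842658 (plus strand), Pdcd1lg2 at chr19:29410669-29410968 (plus) and Edn1 at chr13:42301226-42301525 (plus) were high in M2a, and Fkbp5 at chr17:28486100-28486399 (minus) and Jaml at chr9:45078933-45079232 (plus) were high in M2c. The first 3 were picked because they hold a match. Capitals mark matches to the STAT6-type motif, TTC and GAA with 4 bases of any kind between them.
Retnla: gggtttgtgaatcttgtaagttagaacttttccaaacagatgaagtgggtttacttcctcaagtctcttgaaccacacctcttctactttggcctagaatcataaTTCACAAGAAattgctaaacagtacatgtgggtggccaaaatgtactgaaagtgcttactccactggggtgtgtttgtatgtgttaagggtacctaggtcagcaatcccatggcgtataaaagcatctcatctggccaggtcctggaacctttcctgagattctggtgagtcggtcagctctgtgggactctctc
Pdcd1lg2: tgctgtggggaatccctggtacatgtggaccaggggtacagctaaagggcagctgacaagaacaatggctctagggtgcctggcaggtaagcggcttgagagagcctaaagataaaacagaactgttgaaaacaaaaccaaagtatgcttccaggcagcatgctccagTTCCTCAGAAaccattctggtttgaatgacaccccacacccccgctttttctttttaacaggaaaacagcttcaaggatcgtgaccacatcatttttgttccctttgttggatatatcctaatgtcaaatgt
Edn1: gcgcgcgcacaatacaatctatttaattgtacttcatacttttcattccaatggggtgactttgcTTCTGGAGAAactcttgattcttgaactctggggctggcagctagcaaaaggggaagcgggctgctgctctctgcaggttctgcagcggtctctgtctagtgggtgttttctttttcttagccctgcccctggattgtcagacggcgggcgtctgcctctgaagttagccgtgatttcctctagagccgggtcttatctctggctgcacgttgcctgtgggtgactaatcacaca
Fkbp5: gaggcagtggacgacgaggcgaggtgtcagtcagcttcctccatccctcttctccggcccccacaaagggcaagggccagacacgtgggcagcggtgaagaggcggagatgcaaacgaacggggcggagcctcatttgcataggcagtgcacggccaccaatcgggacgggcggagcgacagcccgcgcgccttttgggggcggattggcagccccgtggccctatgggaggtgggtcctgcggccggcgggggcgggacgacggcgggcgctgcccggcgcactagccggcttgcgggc
Jaml: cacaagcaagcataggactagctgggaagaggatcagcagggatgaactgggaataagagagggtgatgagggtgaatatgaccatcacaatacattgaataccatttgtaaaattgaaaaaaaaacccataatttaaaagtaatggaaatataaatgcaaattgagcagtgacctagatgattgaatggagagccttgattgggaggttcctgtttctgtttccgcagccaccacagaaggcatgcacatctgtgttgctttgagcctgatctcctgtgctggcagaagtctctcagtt

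The match begins 145 bases before the start in Retnla, 82 in Pdcd1lg2 and 185 in Edn1. Rbp4, also high in M2a, holds TTCTAGAGAA 120 bases before its start, and Ccl17 holds TTCTCTGGAA 154 bases before. Over all genes the motif occurred in 7.17% of genes at least 2-fold higher in M2a that have a promoter in the table, 7.69% of those higher in M2c, 6.87% of all genes tested and 8.01% of all genes in the table, on both strands. The spacing with 3 bases between, used by other STAT factors, stood in 8.3, 9.28, 8.28 and 9.55% of the same sets, with matches in the promoters of Chil3, Per1 and Tsc22d3. The palindromic glucocorticoid response element (GNACA, any 3 bases, TGTNC) was found in 0.281, 0.663, 0.381 and 0.537%, which is 2 and 5 genes in the first and second set, and AGAACA, one arm of it, in 14.6, 17.5, 15.9 and 21.3%. None of the named promoters held the palindrome, Fkbp5 and Jaml included. A match is a string of letters and not a measured binding site, and such elements often lie outside this window.

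Genes known from IL-4 treatment were mostly higher in M2a. Of 35 listed genes, all tested, 26 were higher in M2a and 1 lower, with a median difference of 3.04 against 0.02 for all genes (3.61 with genes below background in one group held at their bound). The lower one was Arg2, the mitochondrial arginase, at -2.76. Against M0, 27 of the 35 rose and none fell in M2a, with 6.36% of all genes called higher there, while in M2c 9 rose and 5 fell.

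Retnla, which encodes the secreted effector RELMα, read 2.53, 5.06 and 4.71 on the 3 M2a arrays and -7.81, -7.75 and -7.94 on the M2c arrays, where it was not well above background. M0 was as low, at -7.74, -7.73 and -8.18. The difference from M2c was at least 864-fold (adjusted p = 3.5e-14), and a second probe differed by 11.38 log2 units against 11.93 for the first, or 12.72 without M2a 1. Its first probe lies at chr16:48763960-48764019 in the mm8 build that the array files use.

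Mgl2, a galactose-binding lectin of macrophages and dendritic cells (CD301b), read 2.24, 3.77 and 3.87 in M2a and -6.34, -6.53 and -6.36 in M2c. No M2c array was above background and the difference was at least 494-fold (adjusted p = 6.4e-12). The related Clec10a differed by 0.42 and the mannose receptor Mrc1 by 0.16 ± 0.55 (SE, adjusted p = 0.85). Mrc1, a widely used marker of IL-4 macrophages, read 4.88 to 5.8 in M2a, 5.14 to 5.5 in M2c and 4.01 to 4.05 in M0, so that the M2a and M2c arrays overlapped and neither passed the threshold against M0.

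Arg1, which splits arginine into ornithine and urea, was the clearest gene of the arginine pathway. It read 6.22, 6.05 and 5.7 in M2a and -1.83, -1.02 and -2.37 in M2c, a 212-fold difference (adjusted p = 9.9e-14). M0 lay lower than both, at -4.27, -4.17 and -4.88. M2c was above M0 by 2.7 log2 units (adjusted p = 1.7e-05), and M2a by 10.43. The arginine importer Slc7a2 differed 21.9-fold and argininosuccinate synthase Ass1, which rebuilds arginine from citrulline, 9.77-fold. Of 23 genes of arginine and polyamine metabolism, 11 were higher and 4 lower in M2a, 65.2% called against 35.4% of all genes, with a median of 0.35. Ornithine decarboxylase Odc1 (1.33), spermidine synthase Srm (1.58) and the proline-forming Pycr1 (1.34) and Aldh18a1 (1.63) were among the higher ones, Pycr1 losing its call with normexp background correction (0.4), and the polyamine oxidase Paox (-2.0) and Arg2 among the lower. Nos2, which makes nitric oxide from the same arginine, was not well above background in any of the 9 arrays of M0, M2a and M2c.

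Among the surface and secreted proteins, the cadherin Cdh1 read 1.7, 0.48 and 0.35 in M2a and -6.96 to -7.07 in M2c, at least 90.6-fold apart (adjusted p = 1.3e-09). Pdcd1lg2 (PD-L2), a ligand of the T cell receptor PD-1, read -0.23, -0.73 and -0.63 in M2a and was at background in M2c, at least 34.9-fold lower. Edn1, the precursor of the vasoconstrictor endothelin-1, was at background in M0 and M2c and at -0.33, -1.49 and -1.24 in M2a, at least 24.8-fold higher than in M2c. Rbp4, the plasma carrier of retinol, was at least 34.4-fold higher, and Jsrp1, a protein of the muscle sarcoplasmic reticulum, at least 43.3-fold. Ddx4, a helicase known from germ cells, read 2.41, 1.61 and 1.26 in M2a against -6.36, -5.14 and -5.12 in M2c and -5.11, -5.41 and -4.98 in M0.

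Transcription factors and brakes of the pathway pointed to both sides. Egr2, a zinc finger factor, read 6.55, 6.32 and 6.31 in M2a, 4.77, 4.51 and 4.57 in M0 and 0.7, -0.15 and -0.22 in M2c. Its 77.9-fold difference (adjusted p = 3.9e-10) was thus made up of a rise of 1.78 under IL-4 and a fall of 4.51 under dexamethasone. Irf4, needed for many IL-4 responses in macrophages, was above background on all 3 M2a arrays and on no M2c array, at least 23.8-fold apart. The STAT-induced inhibitors Cish (31.2-fold), Socs1 (17.5-fold) and Socs2 (7.88-fold) were higher in M2a, while Socs3 (-2.08) and the receptor chain Il4ra (-1.89) were lower. Of 22 tested genes of the IL-4 receptor and its signalling, 8 were higher and 7 lower, 68.2% called against 35.4% of all genes, with a median of -0.08. Stat6 itself read 3.12, 3.19 and 3.08 in M2a and 3.29, 3.49 and 3.36 in M2c, a difference of -0.25 (adjusted p = 0.058) that passed under 6 of the alternative settings.

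Some genes often used as IL-4 markers did not pass. Chil3 (Ym1) read 8.89, 8.54 and 8.73 in M2a, 5.98, 6.25 and 6.12 in M2c and 0.52, 1.33 and 1.65 in M0. Its arrays did not overlap, yet the difference of 2.6 ± 1.26 (SE) had an adjusted p of 0.11, since the error is shared by 12 groups and the SD of Chil3 reached 2.82 in the Mreg culture with LPS. In a fit of only the 6 arrays the adjusted p was 0.00023. Both states were higher than M0, by 7.55 in M2a and 4.95 in M2c. Chil3 and its near-identical neighbour Chil4 may share signal on these probes. Ccl17 differed by 1.39 (adjusted p = 0.11), with 1 high array in M2a, and Alox15 was below background in both groups.

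**Figure D2:**
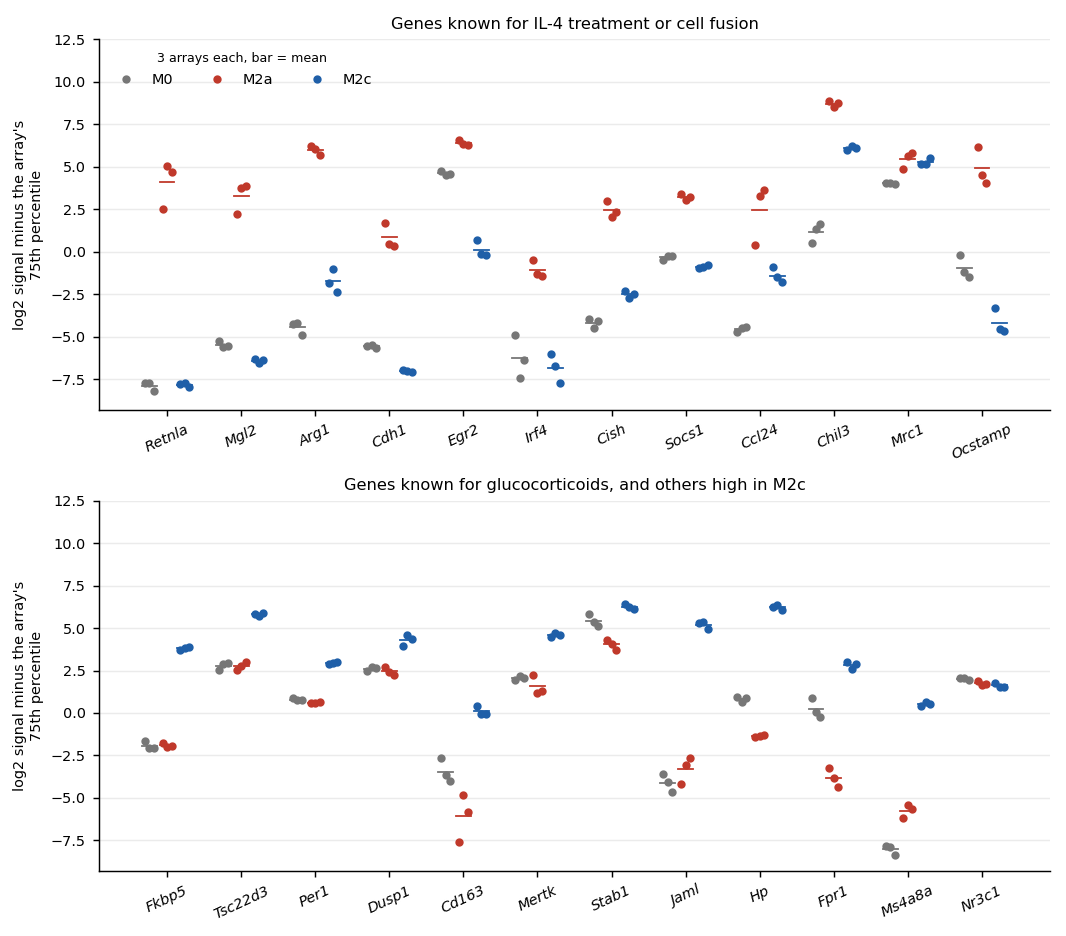
Levels on each of 9 arrays for 12 genes known from IL-4 treatment or cell fusion (upper panel) and 12 genes known from glucocorticoids or high in M2c (lower panel), as log2 signal minus the array's 75th percentile, with 3 arrays and their mean (bar) for M0 in grey, M2a in red and M2c in blue. Arg1 is at 5.7 to 6.22 in M2a and at -1.02 or less in the other groups, while Fkbp5 is at 3.7 to 3.89 in M2c and at -1.65 or less in the other groups.

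Genes known from glucocorticoid treatment lay on the other side. Of 36 listed, 34 were tested, and 25 were higher in M2c and 4 higher in M2a, with a median difference of -1.53. Against M0 with 10.4% of all genes called higher in M2c, 21 of the 34 rose and 4 fell, while in M2a 4 rose and 6 fell.

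Fkbp5, a co-chaperone that lowers the affinity of the glucocorticoid receptor for its ligand, read 3.7, 3.83 and 3.89 in M2c, -1.78, -2.01 and -1.92 in M2a and -1.65, -2.09 and -2.06 in M0. M2a and M0 overlapped, and M2c stood 52.5-fold above M2a (adjusted p = 4e-12). The 3 Fkbp5 probes gave differences of -5.49 to -5.71. The first lies at chr17:28127522-28127581 (mm8).

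Tsc22d3 (GILZ), a leucine zipper protein that restrains NF-κB and AP-1, read 5.81, 5.71 and 5.89 in M2c and 2.51, 2.78 and 3.02 in M2a, 8.2-fold apart (adjusted p = 1.8e-10), with M0 at 2.54, 2.88 and 2.97. The clock gene Per1, with a known response element, differed 5.11-fold, and Dusp1, a phosphatase that switches off p38 and JNK, 3.63-fold. The mTOR inhibitor Ddit4 read 6.68, 7.48 and 7.02 in M2c and 1.47, 2.46 and 1.84 in M2a, 35.2-fold apart. For all of these M2a lay near M0, with fitted differences between -0.2 and 0.35. The 4 listed genes higher in M2a were Sgk1 (1.59), Anxa1 (1.43), Angptl4 (1.38) and Rgs2 (1.04), which encode a kinase, a lipid-binding protein, a lipase inhibitor and a regulator of G proteins. Without M2a 1, Angptl4 (0.56, adjusted p = 0.13) and Sgk1 (1.11, adjusted p = 0.056) did not pass in limma.

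The receptor gene itself did not pass, while some of its partners did. Nr3c1 read 1.88, 1.67 and 1.71 in M2a and 1.76, 1.55 and 1.55 in M2c, a difference of 0.13 (adjusted p = 0.55) with overlapping arrays. Of 22 genes of the receptor machinery, 8 were higher and 6 lower in M2a, 63.6% called against 35.4% of all genes. Their median difference was 0.13, and that of Fkbp5 was the largest of them. The coactivator Ncoa1 was 2.4-fold higher in M2c and Hsd11b1, the enzyme that regenerates active glucocorticoid inside cells, 2.15-fold. Hsd11b1 fell short of the threshold with normexp background correction, at -0.55, and without M2a 2 (-1.03), M2a 3 (-1.08), M2c 1 (-1.02) or M2c 2 (-1.07).

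Jaml led the named genes that were higher in M2c. It encodes an adhesion molecule of leukocytes that binds the coxsackie and adenovirus receptor, and read 5.3, 5.33 and 4.95 in M2c against -4.17, -3.04 and -2.64 in M2a and -3.6, -4.06 and -4.63 in M0, a 355-fold difference (adjusted p = 1.1e-14) at chr9:44858398-44858457 (mm8). Hp (haptoglobin), the plasma protein that binds free haemoglobin, read 6.26, 6.35 and 6.05 in M2c, -1.4, -1.34 and -1.31 in M2a and 0.92, 0.65 and 0.88 in M0, 190-fold apart. Saa3, another acute phase protein, was 68.7-fold higher. Mrap, an accessory protein of melanocortin receptors, was at least 77.7-fold higher and at background in M2a. Lyve1, a hyaluronan receptor of lymphatic vessels and some tissue macrophages, was at least 21.5-fold higher, with no M2a or M0 array above background. Its second probe gave a fitted difference of -4.49 against -6.28.

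Scavenger receptors and genes of dying-cell uptake were more often higher in M2c, at 15 of 34 against 3 in M2a, beside 17.2% and 18.2% of all genes called these ways, with a median of -0.41. One of the 15, Itgb3, rests on a probe of unusual sequence described below. Cd163 read 0.43, -0.04 and -0.07 in M2c, -2.68, -3.68 and -4.01 in M0 and -7.57, -4.85 and -5.81 in M2a, where 1 of 3 arrays was above background. The fitted difference was -6.19 ± 0.97 (SE, adjusted p = 1.4e-05), or 72.8-fold on means that rest partly on signal near background. It was -5.44 without M2a 1 and -6.8 without M2a 2. Mertk, the receptor that engages phosphatidylserine bridges on dying cells, read 4.48, 4.69 and 4.62 in M2c against 2.24, 1.2 and 1.29 in M2a, 8.12-fold apart. Stab1, a scavenger receptor of tissue macrophages, was 4.69-fold and the collagenous receptor Marco 9.98-fold higher in M2c, Marco 18.5-fold without M2a 1. Thbs1 (thrombospondin 1), a bridge to dying cells and a matrix protein, was 39.3-fold higher, and its 3 probes gave differences of -5.16 to -5.3. The genes higher in M2a were Itgav (0.91), Cd36 (0.96) and the oxidized-lipoprotein receptor Olr1, at least 7.59-fold higher in M2a, where M2a 1 read 0.0 against -3.94 and -4.25. Its fitted difference of 5.22 was 3.85 without M2a 1, 5.82 without M2a 2 and 5.98 without M2a 3.

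Complement and Fc receptor genes also leaned toward M2c, at 13 of 26 against 2, beside the same 17.2% and 18.2%, with a median of -0.68. The 3 chains of C1q, which tags dying cells and immune complexes, were 6.73-fold (C1qa), 4.61-fold (C1qb) and 3.87-fold (C1qc) higher, C1qa and C1qc losing the call on the scan day of replicates 2 and 3. The complement brake Cd55 and the complement receptor Vsig4 were at background in M2a and at least 4.03-fold and 2.99-fold higher, and both lost the call with normexp correction. The 2 other Cd55 probes were at background in both states. The genes higher in M2a were the integrin chains Itgax (CD11c), 15.0-fold (a second probe differed by 2.6 against 3.91), and Itgb2 (0.96).

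Receptors for formyl peptides showed a wide gap. Fpr1, which guides cells to bacterial and mitochondrial peptides, read 3.01, 2.58 and 2.88 in M2c, 0.88, 0.04 and -0.22 in M0 and -3.23, -3.85 and -4.35 in M2a, 99.4-fold between the states. Fpr2, which binds annexin A1 among other ligands, was 54.1-fold higher in M2c, its second probe differing by -4.91 against -5.76. In both genes M2a was below M0 and M2c above it, all 4 differences being called. Cxcr3 showed the same order, 19.1-fold. Ccr3 (4.2-fold), Ccr7 (at least 3.34-fold) and the leukotriene B4 receptor Ltb4r1 (12.6-fold) were higher in M2a, though Ccr7 lost its call with normexp correction (0.78) and its fitted 3.99 fell to 3.26 without M2a 1. Of 20 chemoattractant receptors 5 were higher and 6 lower in M2a, 55.0% called against 35.4% of all genes. The lower ones included Cxcr4 (-2.72).

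Toll-like receptors and their partners were higher in M2c for 12 of 26 genes and higher in M2a for 3 (Cd180, Tlr1 and Ticam1), beside 17.2% and 18.2% of all genes, with a median of -0.41. Ticam1 lost its call without M2a 1 (0.18) or M2c 1 (0.3), and Tlr1 without M2a 2 (0.51), M2a 3 (0.52) or M2c 1 (0.56). Tlr5, the flagellin receptor, was at least 15.9-fold higher, Tlr2 12.1-fold and the LPS coreceptor Cd14 7.73-fold. Cd14 read 5.53, 4.97 and 4.8 in M2c, 5.2, 4.55 and 4.51 in M0 and 1.89, 2.46 and 2.11 in M2a, so that here the M2c and M0 arrays overlapped and M2a stood apart. Inflammatory cytokines and NF-κB genes split, 8 of 29 higher in each state, or 55.2% called against 35.4% of all genes. Tnf read 0.68, -0.12 and 0.53 in M2a and -1.79, -1.55 and -1.41 in M2c, 3.85-fold apart, with M0 near M2a. Il1b (2.21), Il1a (1.69), Ptgs2 (2.09) and the receptor antagonist Il1rn (2.76) were also higher in M2a. The inhibitor Nfkbia (-1.6) and its relative Nfkbiz (-2.96) were higher in M2c. Nfkbiz averaged -4.42 in M2a, -1.86 in M0 and -1.46 in M2c, so that M2a stood apart. Without M2a 1, Il1b (1.47) and Ptgs2 (1.31) were not called and Il1rn was at 2.07. Il1b and Ptgs2 also lost their calls with normexp correction and in a fit of only the 6 arrays. The same held without M2c 1 (2.06 and 2.1) or M2c 3 (2.16 and 2.04), and for Ptgs2 without M2c 2 (2.14). Il10 differed by -1.14 (adjusted p = 0.11). Of 28 interferon-stimulated genes, 3 were higher in M2a, among them Mx1 (1.72) and Bst2 (0.58), and none in M2c, which is 10.7% called against 35.4% of all genes. Mx1 lost its call without M2c 1 (1.18), and Bst2 without M2c 1 (0.46) or M2a 1 (0.52).

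Ccl7 and Ccl2, which draw monocytes, and Ccl24, which draws eosinophils, were higher in M2a. Ccl7 read 5.77, 5.93 and 6.29 in M2a and 1.17, 1.35 and 1.32 in M2c, 26.3-fold apart, and Ccl2 differed 11.6-fold. For both, M0 lay between the states, M2a was called above it and M2c below it. Ccl24 (eotaxin-2) read 0.41, 3.3 and 3.66 in M2a and -0.92, -1.5 and -1.8 in M2c, 14.6-fold apart (adjusted p = 0.00025; 29.6-fold without M2a 1), and both states were above M0 at -4.71 to -4.44. In all, 8 of 27 chemokines were higher and 3 lower in M2a (Pf4, Cxcl16 and Ccl25), 40.7% called against 35.4% of all genes, with a median of 0.29. The lower ones were a smaller share than the 17.2% of all genes called that way. Pf4 lost its call without M2a 1 (-1.01) and Cxcl16 without M2a 2 (-0.61), without M2a 3 (-0.84) and without M2c 2 or M2c 3 (-1.02 and -0.94), and a second Ccl25 probe differed by 0.51 against -0.83. The first Ccl25 probe holds a run of alternating T and G, described below.

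Antigen presentation through MHC class II was higher in M2a for 6 of 13 genes and lower for the ubiquitin ligase Marchf1 (-0.79), which removes class II from the surface, with a median of 0.55. Among all genes 18.2% and 17.2% were called these ways. The class II chains H2-Aa and H2-Ab1 each differed 20.4-fold, and Ciita, the coactivator that governs them, at least 19.6-fold. H2-Ab1 read 3.2, 2.26 and 1.58 in M2a, 0.68, 0.36 and -0.51 in M0 and -2.28, -1.65 and -2.07 in M2c. The 3 groups did not overlap, and both steps from M0 were called. Cd74, the invariant chain, differed 17.4-fold, while the peptide-loading genes H2-DMa (0.08), H2-DMb1 (0.28) and H2-DMb2 (0.25) did not pass. Among ligands of T cells, Pdcd1lg2, Cd274 (PD-L1, 2.66) and Cd276 (at least 5.08-fold, fitted 4.02, or 3.27 without M2a 1) were higher in M2a. Icosl, the ligand of ICOS, was 17.1-fold higher in M2c by 1 probe, while its other probe was at background in both states. By the first probe Icosl averaged -4.25 in M2a, -0.75 in M0 and -0.15 in M2c, so that M2a stood apart.

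Genes of macrophage fusion into giant cells and osteoclasts were higher in M2a for 12 of 25 and lower for 4, beside 18.2% and 17.2% of all genes, with a median of 0.44. The 4 were Itgb3, by the probe described below, Nfatc1 (-0.88, with a second probe at -0.03), Tnfrsf11a (-0.61) and Adam9 (-0.33), which passed in only 1 of the 6 fits that leave out an array. Ocstamp read 6.16, 4.5 and 4.06 in M2a, -0.21, -1.19 and -1.48 in M0 and -3.32, -4.54 and -4.68 in M2c, 543-fold apart (adjusted p = 8.1e-14), or 352-fold without M2a 1, and a second probe differed by 6.28 log2 units against 9.08. Dcstamp, its relative and likewise needed for fusion, was 63.8-fold higher, with 1 of 3 M2c arrays above background. Both rose under IL-4 and fell under dexamethasone against M0, as separate calls. Cd9 (2.91) and Cdh1 were also higher in M2a. Matrix proteases, coagulation and growth factors followed, 15 of 33 higher and 5 lower, beside the same shares of all genes, with a median of 0.75. The EGF-family ligand Hbegf differed 71.9-fold, the collagenase Mmp13 24.3-fold, the elastase Mmp12 21.0-fold and tissue factor F3 at least 11.6-fold. F13a1, the transglutaminase that cross-links fibrin, read 6.1, 5.31 and 5.53 in M2c and -0.47, 0.39 and 0.72 in M2a, 43.1-fold higher in M2c.

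Cholesterol synthesis was a shift of many genes by a small amount. Of 26 genes, 17 were higher and 1 (Tm7sf2, not called without M2a 1 at -0.47) lower in M2a, with a median of 0.75. Against M0, 13 fell in M2c (10.0% of all genes were called lower there) and none rose, while 3 rose in M2a. The epoxidase Sqle read 1.82, 2.48 and 2.44 in M2a, 2.04, 1.88 and 1.9 in M0 and 0.5, 0.22 and 0.17 in M2c, 3.86-fold apart. Cyp51, the lanosterol demethylase, differed 2.81-fold. The cholesterol exporter Abca1 (8.09-fold) and the apolipoprotein Apoc2 (18.6-fold) were higher in M2c, and the fatty acid regulator Pparg (4.01-fold) in M2a. Of 28 glycolysis and hypoxia genes, 11 were higher and 4 lower in M2a, with Slc2a1, the basal glucose carrier, 3.1-fold higher and Slc2a3 2.48-fold lower. Called were 53.6% of these 28, against 35.4% of all genes. A second Slc2a3 probe, at background in M2a, gave a fitted difference of -6.89 against -1.31, and the remaining one was at background in both states. In M2c 11 of these 28 fell against M0 and none rose.

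The MS4A family of membrane proteins lay together. Of 14 genes tested, 9 were higher in M2c and none in M2a, with a median of -1.91. Ms4a8a read 0.41, 0.62 and 0.51 in M2c and -6.17, -5.43 and -5.64 in M2a, where 1 of 3 arrays was above background, and -7.86 to -8.36 in M0. Ms4a6b was 13.1-fold and Ms4a4b 7.69-fold higher in M2c. The B cell gene of the family, Ms4a1, differed by 0.16 and was below background in both groups. Several of these genes are close relatives whose probes may share signal.

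Genes of purine signalling included Cd38, an ecto-enzyme that consumes NAD, 41.6-fold higher in M2c (a second probe at -4.23 against -5.38), and the ADP receptors P2ry12 and P2ry13, each at least 19.3-fold higher and at background in M2a. Adenosine deaminase Ada was 7.35-fold higher in M2c and the ADP receptor P2ry1 16.5-fold higher in M2a (a second probe at 4.78 against 4.05). Of 22 such genes 8 were higher in M2c and 4 in M2a. In iron and redox metabolism the transferrin receptor Tfrc was 4.57-fold higher in M2a, and the iron exporter Slc40a1 (4.47-fold), the secreted peroxidase Gpx3 (-4.91 on the log2 scale) and the metallothionein Mt2 (4.72-fold) were higher in M2c. Without M2a 1, Gpx3 was at -5.68 and Mt2 2.97-fold apart. The clock repressor Bhlhe40 was 31.7-fold higher in M2a and Nr1d1 3.97-fold higher in M2c by one probe (-1.99), while its other probes differed by -0.36 and -0.35. The phosphatase Dusp4 was 27.4-fold (a second probe at 3.96 against 4.78) and the AP-1 member Fosl1 5.38-fold higher in M2a. Of 27 eicosanoid genes 7 were higher and 4 lower in M2a, with the prostacyclin receptor Ptgir 12.7-fold higher and the phospholipase Pla2g7 6.63-fold lower. A second Ptgir probe, above background on all 6 arrays, differed by 1.01 against 3.67. Among 22 C-type lectins 3 were called in each direction (10 in all without M2a 1), Clec7a (the beta-glucan receptor dectin-1) being 16.7-fold higher in M2a and Clec4a1 5.48-fold higher in M2c. Of 32 lysosomal genes 6 were higher in M2a, and 10 higher in M2c, among them Ctsf (2.63-fold). With 18.2% of all genes called higher in M2a and 17.2% in M2c, several of these counts were near or below the background. They were the lectins in both directions, the eicosanoid genes higher in M2c and the lysosomal and purine genes higher in M2a.

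Cell cycle genes were lower than in M0 in both states, 25 of 30 in M2a and 26 of 30 in M2c, where 5.94% and 10.0% of all genes were called lower. Between the states 8 were lower and 3 higher in M2a, a count that fell to 4 in all without M2a 1 and to 2 on the scan day of replicates 2 and 3. Plk1 and Ccna2 were each 2.24-fold lower in M2a, and both lost the call on that scan day and without M2a 1 (-0.92 and -0.84), Ccna2 also without M2c 1 (-1.01). Cyclin D1 (Ccnd1) went the other way, at 4.8, 4.75 and 4.65 in M2a and 3.5, 3.37 and 3.03 in M2c.

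**Figure D3:**
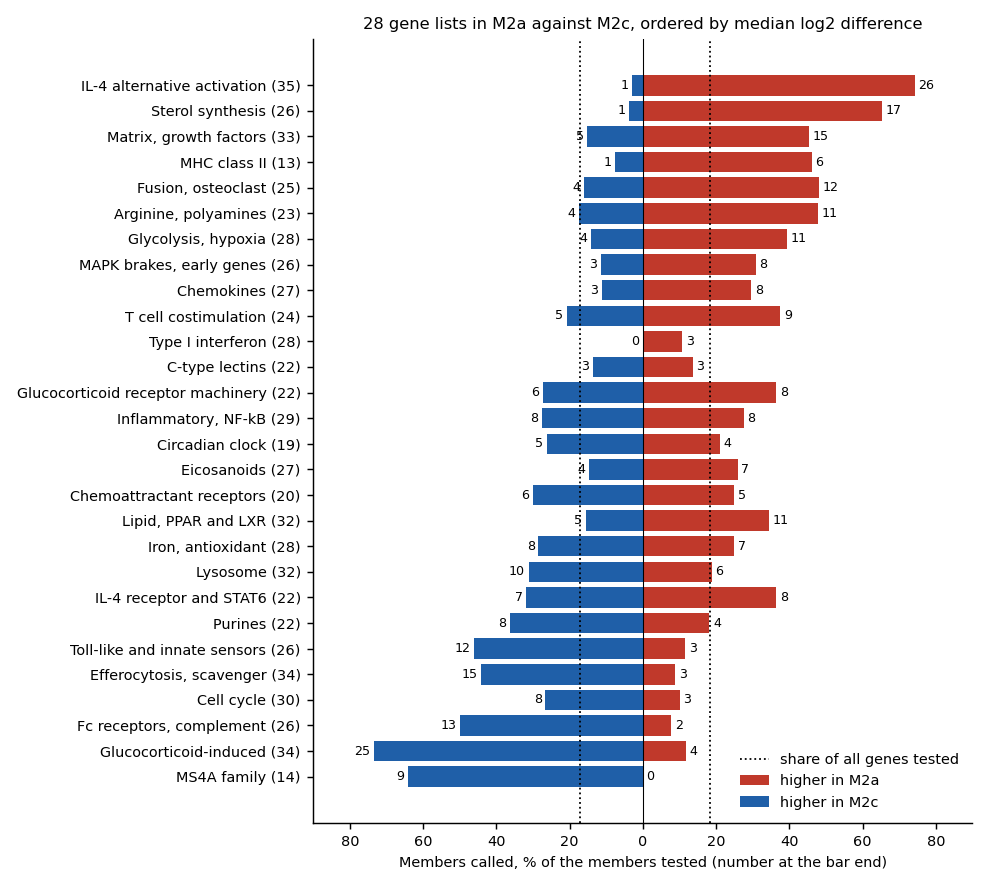
Share of the tested members of each of 28 gene lists that were called higher in M2a (red, to the right) or higher in M2c (blue, to the left), in percent, with the number called at the end of each bar and the number tested in brackets. Dotted lines mark the 18.2% and 17.2% of all genes tested that were called in each direction. The IL-4 list reaches 26 of 35 to the right and the glucocorticoid list 25 of 34 to the left.

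Markers of monocytes depended on the measure: most were called higher in M2c, but their summed signal was higher in M2a. Of 7 tested, 5 were higher in M2c (F13a1, Plac8, Vcan and Ly6c1 among them) and none in M2a, while Ccr2 (0.74) and Chil3 did not pass. Among all genes 17.2% and 18.2% were called these ways. Vcan lost its call with normexp correction (-0.48), and its other probes were at background in both states. Plac8 was at -3.44, or -4.04 without M2c 1. The summed signal of the 7 was 151 to 176 in M2c, 381 to 480 in M2a and 17.1 to 36.5 in M0, in multiples of the 75th percentile. Chil3 makes up most of the M2a sum, at a mean level of 8.72 in M2a against 6.12 in M2c. The part of monocyte-like cells in the M2c results was not tested. Of the markers of other cells, 2 of 10 neutrophil genes were higher in M2a (Ltf and Camp, highest in M2a 1) and Prtn3 in M2c, with Elane at background throughout. Without M2a 1, Ltf (1.95) and Camp (1.44) were not called, and without M2c 3 neither was Ltf (2.3). Camp passed in only 1 of the 6 fits that leave out an array, and all 3 genes lost the call with normexp correction. Among T and NK cell genes 6 of 9 were at background in each state, Lck was at least 4.68-fold higher in M2a (0.72 and not called with normexp correction) and Cd3e differed by -0.47. Of 10 mast cell, basophil and eosinophil genes Siglecf (6.1-fold, or 3.58-fold without M2a 1) and Ccr3 were higher in M2a, with Mcpt8, Cma1, Kit and Epx at background in both. Of 7 B cell genes Cd79b was 2.72-fold higher in M2c, and Ms4a1, Igll1, Jchain and Mzb1 were at background. Pf4 (2.45-fold) and Epor (2.62-fold, not called with normexp correction) were higher in M2c among 8 erythroid and megakaryocyte genes, with Klf1 at background. Pecam1 (at least 5.61-fold, not called with normexp correction at 0.8) and Acta2 (0.89, with a second probe at -1.0) were higher in M2a among 8 stromal and endothelial genes, with Col1a1, Dcn and Pdgfrb at background. Of 9 dendritic cell genes Ccr7 was higher and Flt3 (-0.97) lower in M2a, Flt3 passing in only 2 of the 6 fits that leave out an array, with Clec9a, Cd209a and Btla at background. What such cells add to the comparison was not tested.

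Probes with a run of alternating T and G made up a separate pattern on the M2c side. The integrin chain Itgb3, a partner in uptake of dying cells and in osteoclasts, has probes that pointed in opposite directions. One at chr11:104483266-104483336 (mm8) read 6.9, 4.37 and 6.95 in M2c and 1.13, 0.32 and 0.97 in M2a, and one at chr11:104486448-104486507 read -2.51, -1.83 and -1.42 in M2c and 4.05, 3.97 and 4.41 in M2a. Only the first holds a TG run. Hoxd13, a homeobox factor of limb patterning, read 1.47, -3.02 and 1.42 in M2c and was at background in M2a and M0, and Adamts20, a secreted protease, read 2.68, -1.45 and 2.8 in M2c. Their other probes, 1 for Hoxd13 and 2 for Adamts20, were at background in both states. The 30 bases of each probe around the run are shown in lower case with GTGTGTG in capitals, to let the shared stretch be seen.
Itgb3: gaggacaatttGTGTGTGtgtgtatgggtg
Hoxd13: tatttttgtagatacaGTGTGTGtgagcag
Adamts20: aagagagacaagtgtggaGTGTGTGgtggt

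Over all 41174 probes of 60 bases the difference grew with the length of the run. Counted as M2c minus M2a, the median was -0.16 for 39730 probes with at most 5 alternating bases, dim probes included, 0.01 for 334 probes with 7, 0.24 for 81 with 8, 1.48 for 31 with 9 and 3.59 for 22 with 10 or more. At least 2-fold higher in M2c by mean were 5.19%, 11.7%, 30.9%, 71.0% and 95.5% of these probes, against 5.43% of all probes. With 9 or more bases, 43 of 53 probes were at least 2-fold higher in M2c and none 2-fold lower. Runs of alternating C and A, the complement, showed no such step, with a median of -0.15 and 2.94% of 34 probes at 9 or more bases. For the 53 probes the median difference from M0 was 3.72 on M2c 1, 1.32 on M2c 2 and 3.61 on M2c 3, against 0.49, 0.08 and 0.28 on the M2a arrays and medians of -0.17 to 0.94 in the other groups of the study. Of 98 probes that read over 4-fold lower on M2c 2 than the mean of the other M2c arrays, 40 hold GTGTGTG, as do 234 (0.568%) of all probes.

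The effect on the gene counts was small. The brightest probe held GTGTGTG for 134 of 17606 genes (0.761%), of which 57 were called higher in M2c and 17 higher in M2a, and among differences of at least 2-fold 46 and 4. With such probes left out, 6167 genes were called in place of 6231, and Itgb3 turned to 6.06 (adjusted p = 4.8e-08). Hoxd13, Adamts20 and the M2c-high reading of Itgb3 rest on these probes alone. The longest run was 13 bases in the Itgb3 probe, 9 in that of Hoxd13 and 7 in that of Adamts20. Over the 334 probes with 7 bases the median was 0.01, so the rise with length does not describe Adamts20, which differed far more. The call of the chemokine Ccl25 also comes from such a probe, with a run of 7 bases. It read 1.94, 0.91 and 2.13 in M2c and 1.0, 0.71 and 0.77 in M2a. The cause of the pattern was not tested.

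**Figure D4:**
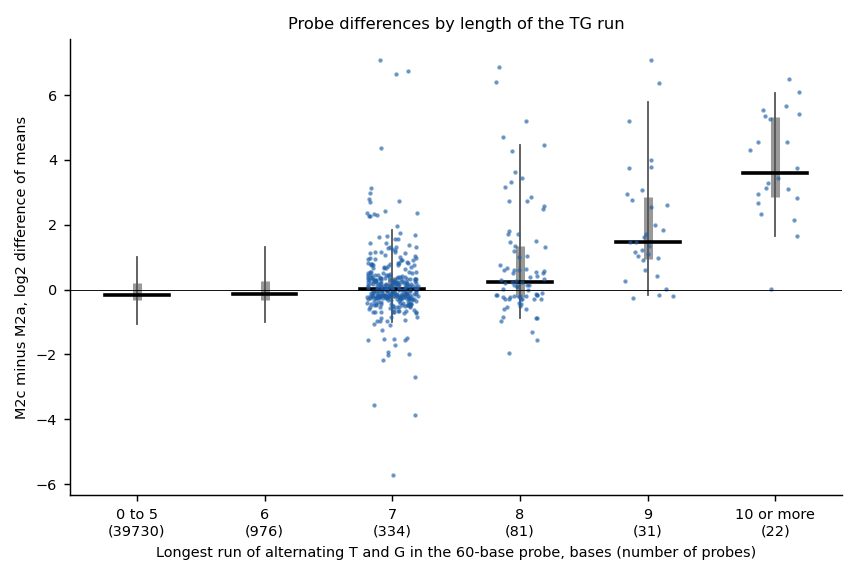
Difference of means, M2c minus M2a in log2 units (vertical axis), of probes grouped by their longest run of alternating T and G in bases (horizontal axis, number of probes in brackets). Black bars are medians, grey boxes span the percentiles 25 to 75 and thin lines the percentiles 5 to 95, with single probes as points from 7 bases on. The median is -0.16 at 0 to 5 bases and 3.59 at 10 or more.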

How the data were processed

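RNA of 36 mouse cell preparations was labelled with Cy3 and put on single-colour Agilent arrays (design 014868, per the file headers); per the labels' protocols, only RNA with a RIN above 6 was used. The spot intensity was background-corrected and processed by Feature Extraction 10.5.1.1 (protocol GE1_105_Jan09), per the file headers, which also set the flags for spots well above background. The deposited series table holds log2 values that the authors normalized, and it served as an alternative (r of 0.997 or more with every array). Coordinates are those of the files (mm8).

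Control spots and flagged uneven or outlying spots were left out, repeats of a probe averaged, probes kept that 3 or more of the 36 arrays flagged as well above background (26478 of 41174), and the brightest probe used per gene (17606 genes). Names came from a RefSeq table (GRCm38.p6, names only) for 24375 probes through the accession, 6301 through the symbol and 2426 through a synonym, and from the file for 8072. A linear model with a mean for each of 12 groups was fitted in limma 3.58.1 (R 4.3.3) to log2 processed signal minus the 75th percentile over all 36 arrays, and calls are at a Benjamini-Hochberg adjusted p below 0.05. A fold is given as at least N where no array of the dimmer group was well above background, with its arrays raised to the lowest signal so called; the adjusted p tests the unraised values. No spot was saturated and no arrays were identical. Tested on simulated data with 200 changed genes of 17606, the fit recovered 67% of those changed by 1 log2 unit and 93% of those changed by 2, with 8 false calls. The simulated noise was independent and normal, with the same SD in every group and no slide or array effects. These figures therefore check the fit and are not error rates of the real comparison. The number of arrays limits the precision. Figures were drawn with Python 3.11.15 and matplotlib 3.10.9.

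The comparison and the 28 function and 9 marker lists were chosen with earlier results of these data known, so a list's direction is no independent support. Named by rule were the 10 largest differences each way among calls without overlap and with the higher group above background (clone and predicted names skipped), up to 3 called members per list with a log2 difference of at least 1, and 22 genes of common use. Other list members named here were picked after their values were seen. Some genes that the rule names are not reported here. Alternatives were normexp background correction (offset 50), quantile normalization, no filter or filters of 18 of 36 or 3 of 6 arrays, only the compared arrays, the mean of a gene's probes, the series table, blocks for replicate, slide and scan day, and each array left out. A single scan day and the removal of GTGTGTG probes were added after the data were seen. Pairing by series number was checked by correlating deviations from group means. Against M0 every same-numbered pair exceeded 0.1 (0.193, 0.154 and 0.267 for M2a, 0.319, 0.171 and 0.276 for M2c), and M0 and M2a of one number share a slide.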

Additional observations from a re-analysis of the deposited data

How the results depend on the processing

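Normexp correction called 4156 genes between M2a and M2c, quantile normalization 6441, no filter on dim probes 5648, filters of 18 of 36 and 3 of 6 arrays 6034 and 6210, only the 6 arrays 5053, the mean of a gene's probes 5899, 6450 with the authors' series table, the slide as a random block (consensus correlation 0.228) 6290, the scan day as a block 6742 and a single scan day 4620. With the replicate number as a block 7059 were called. Same-numbered M2a and M2c arrays deviated together at 0.143, 0.055 and 0.245, and arrays of different numbers at -0.202 to 0.031. Each same-numbered value was thus above every other, though deviations within a group sum to 0, which lowers the others. The labels do not say whether the numbers pair the arrays, and the main fit left them unpaired. Against M0 the replicate block called 2888 genes in M2a and 4339 in M2c and moved no count by over 1.5 times. With each array left out the counts ran from 5038 to 5879 for M2a against M2c, from 1295 (without M2a 1) to 2106 for M2a against M0 and from 2692 to 3081 for M2c against M0. The second of these dropped to 959 on the scan day of replicates 2 and 3. Itgb3 reversed to 0.4 with the mean of its probes and to 6.06 without GTGTGTG probes, as their opposite readings require. Among values of the 113 genes named by rule under the alternatives, 2064 kept direction and side of the threshold, 49 lost it and 11 gained it. Other list members lie outside this count, and several of them lost their calls, as given above. Of the list counts 670 stayed within 1.5 times and 33 did not, among them the receptor machinery (8 with normexp), chemokines (7 on 1 scan day) and C-type lectins (10 without M2a 1). Normexp moved the median difference from M0 over all genes to -0.17 in M2a and -0.187 in M2c, and dim genes such as Ccr7 (0.78), Lck (0.72), Pecam1 (0.8) and Scd1 (0.55) lost their calls under it.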

Other observations

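Set beside the 12 groups of the study, the genes that led the comparison differed in how far they were shared, as mean levels of 3 arrays with no test of the order. Retnla averaged 4.1 in M2a and 5.54 in dendritic cells grown from monocytes (MoDC, whose medium also holds IL-4), and in the other groups lay between -8.0 and -6.49. Mgl2 likewise averaged 3.29 in M2a and 5.88 in MoDC, with 0.75 in sorted monocytes. Arg1 was not limited to these, at 7.38 in MoDC, 6.97 in unpurified regulatory macrophages (Mreg), 5.99 in M2a, 5.47 in Mreg and 4.7 in Mreg without IFN-γ. Ocstamp was high in many groups (7.53 in MoDC, 6.66 in unpurified Mreg, 6.34 in Mreg, 5.23 under IFN-γ, 4.97 in M2b) and ranked last of 12 in M2c, at -4.18. Egr2 was highest in M2a, at 6.39, with 6.32 in MoDC.

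On the dexamethasone side, Jaml (5.19), Fkbp5 (3.81), Tsc22d3 (5.8) and Cd163 (0.11) averaged highest in M2c of the 12 groups. The next were 2.3 for Jaml in sorted monocytes and -1.67 for Cd163 in the same cells. Hp was highest in sorted monocytes, at 8.54, with M2c second at 6.22. Fpr1 was highest in M1 macrophages (IFN-γ with LPS), at 6.32, second in M2c at 2.82 and last in M2a at -3.81.

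Of 6152 genes with more than 1 probe tested, 511 had several probes that moved at least 2-fold between M2a and M2c, and 3 of these had probes in opposite directions. Itgb3 was described above. Cd300lf, an inhibitory receptor of myeloid cells, has a probe spanning 114940458 to 114942250 on chromosome 11 (mm8; difference 1.8, with M2a at 2.69, 2.35 and 2.36 and M2c at 0.65, 0.68 and 0.69) and one at 114932309 to 114932368 (difference -1.5, M2a at 2.8, 2.04 and 2.53 and M2c at 3.74, 4.15 and 3.99). The probes of Gja5 differed by -5.21, -1.13, -0.11 and 2.13. The last of them lies at 98497154 on chromosome 3 (mm8), while the others lie between 97136450 and 97161658. The probe at -5.21 read -0.14, -4.68 and -0.21 in M2c, low on M2c 2 like the Hoxd13 probe above.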
